A study of Sus scrofa with 12 samples.

Results

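Interferon-stimulated genes were read in the ovaries of 12 pregnant sows. The genes were chosen by name, as 29 known targets of interferon. Each gene was read by the probe set that carries its symbol alone and has the highest mean over the sows. Of the 29 genes, 20 had such a probe set, among 6765 genes with a symbol of their own on the array. CXCL10, IFI27, IFI44, IFI6, IFIH1, IFIT5, OAS2, OASL and BST2 had none and were not analysed here. MX2, CXCL9 and XAF1 passed a log2 value of 4 in fewer than 6 sows, so they were left out of the tests, which covered the other 17 genes.

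The sows came from an F2 cross of the Iberian and Meishan pig breeds and were killed on day 30 of pregnancy. The groups were 6 sows of high and 6 of low prolificacy, placed by EBV, the estimated breeding value. All 12 carried the same cross and stage, and the question is how ovarian transcript levels vary with prolificacy. Each sow has 1 Affymetrix porcine array, which stands for the average of her right and left ovary; how they were averaged is not stated. Sows are named here by group and animal number, such as high 5.

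Interferons are cytokines released on viral infection, and in early pregnancy also by the conceptus. Type I interferon acts through the receptor chains IFNAR1 and IFNAR2 and the kinases JAK1 and TYK2 on a complex that holds STAT2 and IRF9. The complex binds a short promoter element and raises antiviral effectors such as MX1, OAS1, RSAD2, ISG15 and the IFIT genes. Interferon gamma has a receptor of its own and raises genes such as IRF1, CXCL9 and the guanylate-binding proteins. In ruminants the interferon of the conceptus raises such genes in the corpus luteum, and pig conceptuses release interferons gamma and delta.

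Array medians lay between 4.81 and 4.97 after the authors' normalization by GCRMA. All values are on a log2 scale, and a gene's difference is the mean of high sows minus the mean of low sows. High 2 and high 3 had the lowest mean rank correlation with the other arrays, 0.982 and 0.981, where the other sows had 0.985 to 0.989. Luteal markers were high in all sows, with 6 of 6 above 4 in at least 6 sows and a mean level of 13.12 to 13.80 in the high group, and 13.36 to 13.62 in the low group. The 3' minus 5' difference of the actin control, a sign of RNA integrity, was 2.59 ± 0.45 in the high group, and 2.12 ± 0.13 in the low group (SD, n = 6 each, exact permutation p = 0.0325, two-sided). Its highest values were 3.23 in high 2 and 2.98 in high 4. The actin probe sets belong to a block of controls whose names are displaced, and were read with the names moved back. Liver transcripts set 4 libraries apart. ALB, the gene of serum albumin, stood at 8.67 in high 5 and at 12.61, 8.80 and 12.40 in low 1, low 3 and low 4, against 2.04 to 3.33 in the other 8 sows. FGB, a fibrinogen chain, stood at 6.63 in high 5 and at 11.52, 8.49 and 12.87 in low 1, low 3 and low 4, and TTR and SERPINA1 were high in low 1 and low 4 alone. The other 2 of 6 hepatocyte markers, TF and APOA1, did not set these sows apart in their probe sets of highest mean. A TF probe set of lower mean did, and was higher in high 5, low 1, low 3 and low 4 than in any other sow. Only some results below are also given without these sows, namely the median difference, a few single differences and some correlations with RSAD2. The other results include them. The array design puts control probe sets of RSAD2 under the same symbol, but their names are displaced in the table, so RSAD2 was read by its gene probe set.

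Among the antiviral effectors, OAS1 set the groups furthest apart. OAS1 makes the oligoadenylates that switch on RNase L, which degrades viral RNA. Its lowest, median and highest log2 values were 4.38, 7.33 and 9.61 in the high group, against 4.18, 4.58 and 5.80 in the low group. High 1, high 2, high 5 and high 6 lay above every low sow, while high 3 and high 4 lay within the low range. OAS1 averaged 7.06 ± 1.80 in the high group, against 4.80 ± 0.68 in the low group (SD, n = 6 each). The difference was 2.25 (95% interval 0.73 to 3.77, 4.77-fold), and it did not pass across the array (limma adjusted p = 0.752).

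RSAD2, also called viperin, makes a nucleotide that stops viral RNA synthesis. Its lowest, median and highest values were 2.66, 6.35 and 7.97 in the high group, against 2.58, 4.41 and 7.20 in the low group. The groups overlapped almost wholly, with high 3, low 1 and low 2 under 3 and high 1 and low 4 at the top. The difference of 1.08 had an interval of -1.06 to 3.23 (limma adjusted p = 0.934). No sow lay between 4.70 and 6.03. Within groups the SD of RSAD2 was 1.96 in the high group, and 1.89 in the low group, a wider spread than its difference.

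ISG15 is a ubiquitin-like protein that is joined to other proteins in interferon-treated cells. It ran from 3.19 in high 3 to 7.88 in high 5, with a median of 6.84, in the high group, and from 3.81 to 7.49 in low 4, with a median of 4.72, in the low group. The lowest ISG15 of all 12 sows thus came from the high group, and the difference of 1.04 had an interval of -0.88 to 2.95. With 1 sow left out the difference ran from 0.70 to 1.64, the highest without high 3. USP18 removes ISG15 from proteins and dampens the interferon receptor. Its lowest, median and highest values were 5.94, 6.58 and 7.76 in the high group, against 4.95, 6.36 and 7.01 in the low group. Low 1 and low 2 held the lowest USP18 of all 12 sows, at 5.08 and 4.95.

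The IFIT proteins bind viral RNA that lacks the cap marks of the host. IFIT1, IFIT2 and IFIT3 lie next to each other in the RefSeq gene order of the pig, IFIT3 between the other two. IFIT1 had values of 5.83, 7.20 and 8.61 (lowest, median, highest) in the high group, against 5.20, 6.17 and 8.12 in the low group. IFIT3 had 4.69, 6.46 and 7.997 in the high group, against 4.49, 5.51 and 7.35 in the low group. For both genes low 3 and low 4 stood above high 6. IFIT2 had a narrower span, 5.16, 5.58 and 6.48 in the high group, against 4.76, 5.25 and 5.75 in the low group. The differences were 0.71 for IFIT1, 0.48 for IFIT2 and 0.48 for IFIT3, and limma adjusted p values lay from 0.874 to 0.962. Without high 1 the difference was 0.42 for IFIT1 and 0.14 for IFIT3.

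MX1, a dynamin-like GTPase that blocks influenza and other viruses, had 7.66, 8.80 and 9.86 in the high group, against 7.32, 7.98 and 9.80 in the low group. High 1, high 5 and low 4 stood together at the top, at 9.81, 9.86 and 9.80. Its paralogue MX2 stayed under 4 in 11 of 12 sows and reached 5.06 in high 2. MX2 ran from 2.26 to 5.06 in the high group, against 2.89 to 3.48 in the low group. The sow with the highest MX2 was thus not among the 3 with the highest MX1.

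ISG12(A), a small membrane protein of the IFI27 family, had 9.39, 9.999 and 11.98 in the high group, against 9.37, 9.49 and 10.73 in the low group. High 5 alone stood above 11, and the difference of 0.49 was 0.16 without that sow. IFI44L, an interferon-induced protein of less settled function, had 8.60, 9.10 and 9.96 in the high group, against 8.44, 8.82 and 9.30 in the low group. XAF1, which favours apoptosis in interferon-treated cells, exceeded 4 in 3 sows only. Those were high 1 at 4.86 and high 5 at 5.13 in the high group, and low 4 at 4.36 in the low group.

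**Figure D1:**
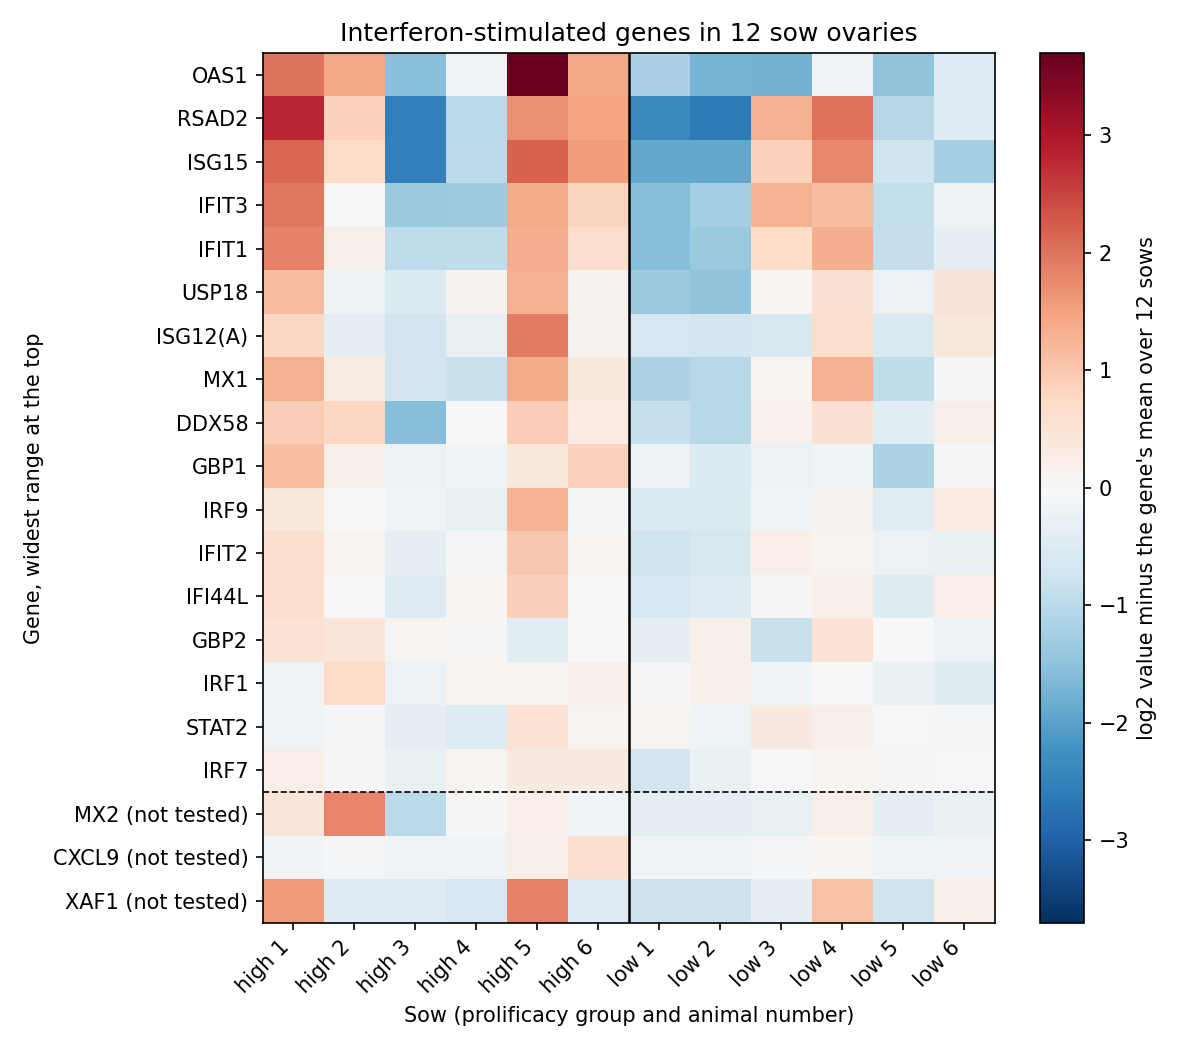
Log2 values of 20 interferon-stimulated genes in each sow, minus the gene's mean over 12 sows, with high prolificacy sows left and low prolificacy sows right of the line. Genes under the dashed line were not tested. High 1, high 5 and low 4 are red over most genes, high 3, low 1 and low 2 are blue, and OAS1 is blue in low 3 where RSAD2 is red.

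DDX58 encodes RIG-I, a helicase that senses viral RNA and is itself raised by interferon. Its values were 3.34, 5.45 and 5.83 in the high group, against 3.87, 4.78 and 5.46 in the low group. High 3 held the lowest DDX58 of all sows, and the difference of 0.46 was 0.82 without it. With the actin 3' difference as a covariate the DDX58 difference was -0.014.

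Among the transcription factors of the pathway, the differences ran from -0.12 for STAT2 to 0.40 for IRF9. IRF7, which amplifies interferon production, had 3.80, 4.23 and 4.39 in the high group, against 3.37, 4.05 and 4.14 in the low group, a difference of 0.27 that was 0.16 without low 1. These values lie close to the level of 4 that a tested probe set had to pass. IRF9, the DNA-binding part of the type I complex, had 5.61, 5.84 and 7.13 in the high group, against 5.33, 5.58 and 6.16 in the low group. High 5 set its upper end, and the IRF9 difference of 0.40 was 0.18 without that sow. STAT2, the partner of IRF9, had 5.84, 6.22 and 6.86 in the high group, against 6.15, 6.36 and 6.64 in the low group. It was the 1 tested gene with a lower mean in the high group, by a difference of -0.12 (interval -0.47 to 0.23). With 1 sow left out the STAT2 difference ran from -0.25 without high 5 to -0.041 without high 4.

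IRF1, the GBP genes and CXCL9 are known as targets of interferon gamma. IRF1 had 7.14, 7.46 and 8.07 in the high group, against 6.89, 7.23 and 7.53 in the low group, with its top in high 2. The IRF1 difference was 0.26, 0.14 without high 2, and -0.0014 with the actin 3' difference as a covariate. GBP1 and GBP2 are guanylate-binding GTPases that act against intracellular microbes and are neighbours in the RefSeq gene order. GBP1 had 5.46, 5.99 and 6.79 in the high group, against 4.50, 5.46 and 5.60 in the low group. Its difference of 0.76 had an interval of 0.21 to 1.31 and did not pass (limma adjusted p = 0.752). In the high group, high 3 and high 4 lay within the low range of GBP1, and in the low group low 5 stood lowest. GBP2 had 5.45, 5.92 and 6.39 in the high group, against 5.01, 5.72 and 6.36 in the low group, with its lowest high group value in high 5. CXCL9, a chemokine for T cells, stayed at or under 3.34 in the high group, and 2.80 in the low group.

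**Figure D2:**
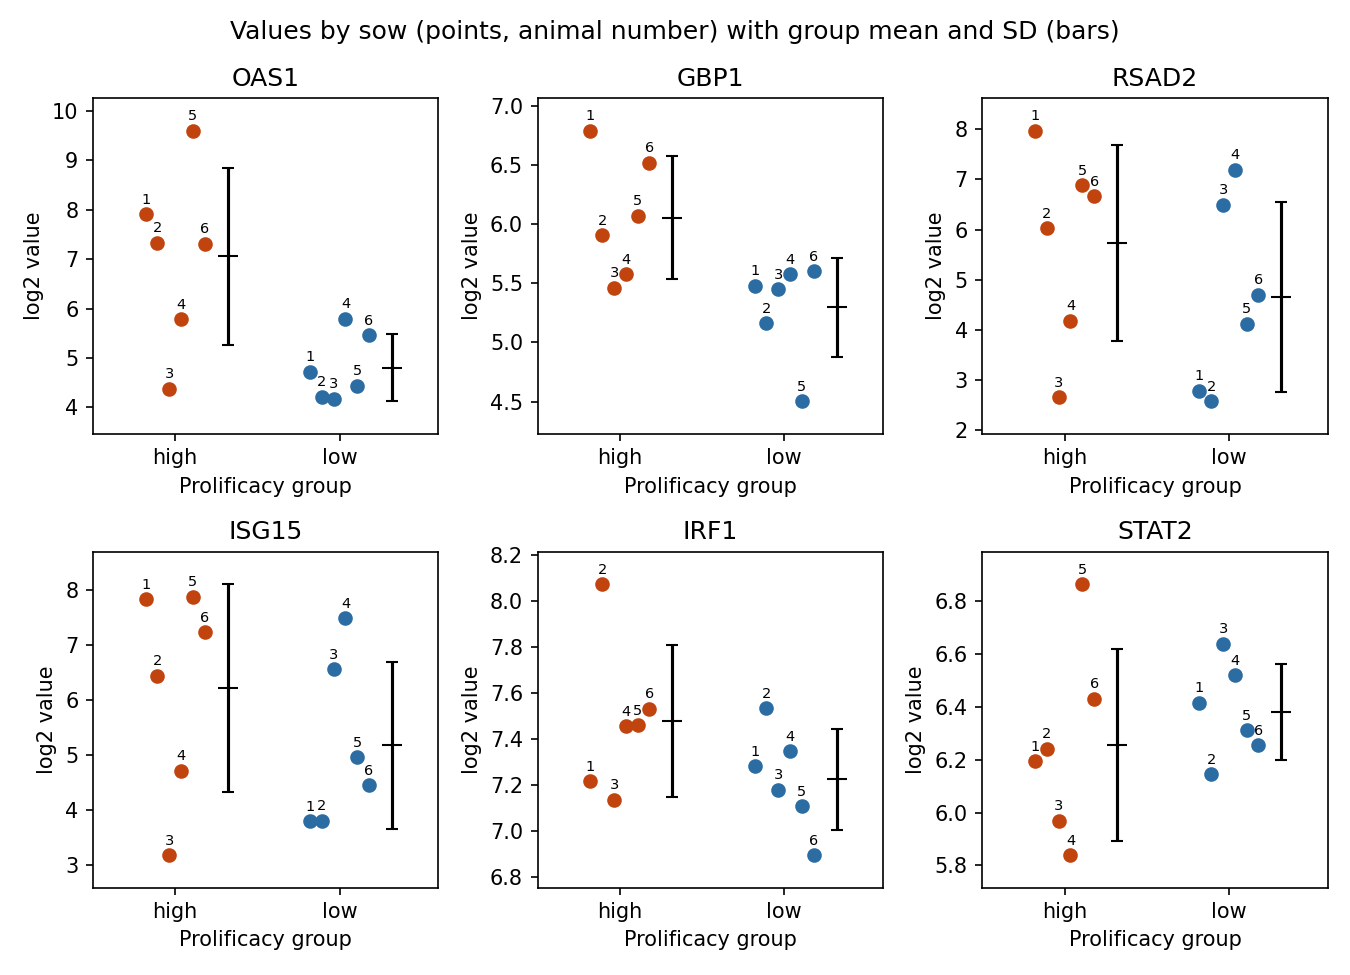
Log2 values of 6 genes by sow, with the group mean and SD (n = 6 each) as bars beside the points and the animal number above each point. The groups overlap in all 6 genes, and 4 high sows lie above every low sow for OAS1 and also for GBP1.

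Across the 17 tested genes, 16 had a higher mean in the high group, and the median difference was 0.48. Of all 13390 probe sets tested, 47.6% were higher in the high group, and their median difference was -0.010. No member passed an adjusted p of 0.05 in limma, with adjusted p values from 0.752 to 0.962. The background was 0% of probe sets. At an unadjusted p under 0.05 there were 2 members, OAS1 and GBP1, where 5.64% of all probe sets tested were. The groups did not overlap in 0 members, where 0.471% of all probe sets tested did not overlap. Including the 3 dim genes, 19 of 20 had a higher mean in the high group, with a median difference of 0.47.

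The 17 genes are not 17 separate observations, since most of them varied together from sow to sow. The median difference was 0.80 without high 3 and 0.85 without high 2 and high 3, the sows of lowest array correlation. It was 0.33 without high 5. It was 0.50 without low 1 and low 4, and 0.49 without high 5, low 1, low 3 and low 4, the sows with liver transcripts, and 16 of 17 members were above 0 in both fits. Without those 4 sows OAS1 differed by 1.84, RSAD2 by 1.70, GBP1 by 0.96 and ISG12(A) by 0.21, and the smallest limma adjusted p of a member was 0.8925. That fit kept only low 2, low 5 and low 6 in the low group. It dropped low 3 and low 4, which had the highest RSAD2 of the low group, at 6.49 and 7.20. With the actin 3' difference as a covariate the median difference was 0.59, and 14 of 17 members stayed above 0. The 2 sows with the largest actin 3' differences, high 2 and high 4, had means over the members of 0.30 and -0.35, each gene taken relative to its mean over all sows. The 95% interval of a member's difference reached a median of 0.90 to either side, against 0.35 over all probe sets tested.

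**Figure D3:**
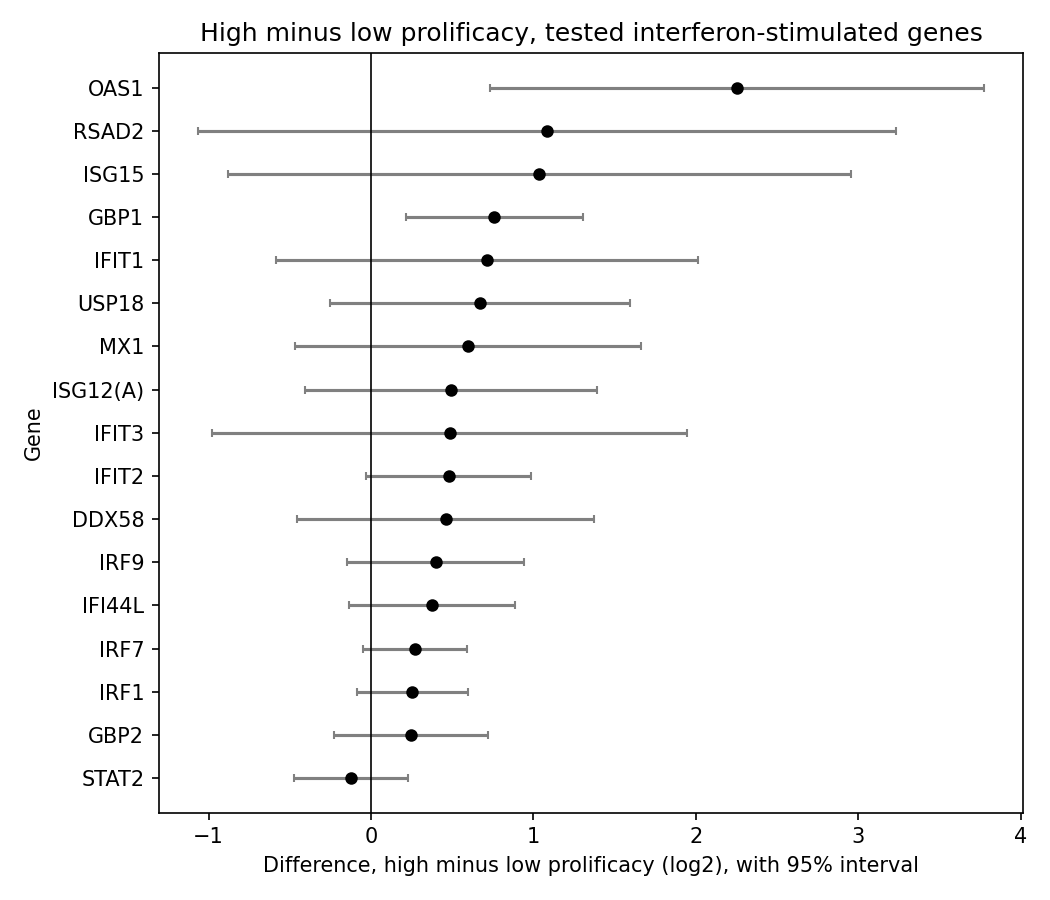
Difference in log2 value, high minus low prolificacy, with its 95% interval from limma (n = 6 each) for 17 interferon-stimulated genes, ordered by size. The interval lies above 0 for OAS1 and GBP1 before any adjustment, and STAT2 is the only gene under 0.

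Sows of 1 group differed widely in these genes. The median within-group SD was 0.80 over the 17 members and 0.28 over all probe sets tested. An SD above 1 was found in 5 members, RSAD2, ISG15, OAS1, IFIT3 and IFIT1, and in 2.35% of all probe sets tested. In high 5, 10 members held their highest value of 12 sows, and in high 1 it was 5 members. How often each sow was highest or lowest over all probe sets tested is not given here. High 1 and high 5 each had 15 of 17 members among their 3 highest sows, and low 4 had 8. At the other end, high 3 and low 1 each had 13 members among their 3 lowest sows, and low 2 had 14. No low sow held the highest value of any member. The lowest value was in low 1 for 6 members, low 2 for 4 and low 3 for 2. It was in low 5 and low 6 for 1 member each, in high 3 for 2 and in high 4 for 1.

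With each gene's mean over 12 sows subtracted, the average over members was highest in high 5. The high sows stood at 1.07, 0.30, -0.84, -0.35, 1.17 and 0.48 for animals 1 to 6. The low sows stood at -0.93, -0.89, 0.071, 0.61, -0.57 and -0.13. In the high group 4 sows were above 0 and in the low group 2. In bulk tissue, more cells of a responding type and more transcript per cell cannot be told apart.

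RSAD2, chosen after its values were seen for its wide spread, was set against the other 16 tested members over 12 sows. With 100000 permutations and Benjamini-Hochberg adjustment over 16 relations, 13 passed 0.05 by Pearson's r and 13 by Spearman's rho. The share of all probe sets tested that follow RSAD2 is not given here, so these counts have no background beside them. IFIT1 followed RSAD2 with r = 0.971 (permutation adjusted p = 8e-05) and rho = 0.965 (adjusted p = 0.00032). Its unadjusted p of 1e-05 is the smallest these permutations can give, and r was 0.987 without high 3 and low 2, the sows farthest from the RSAD2 median. For ISG15 r was 0.973 and rho 0.930 (permutation adjusted p = 0.000107 and 0.0004), and r was 0.983 in the high group, and 0.965 in the low group. IFIT3, MX1 and DDX58 had r of 0.959, 0.923 and 0.911 and rho of 0.902, 0.916 and 0.909, with permutation adjusted p from 8e-05 to 0.000457. The relation within both groups was close for these genes, with r from 0.905 to 0.971.

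For IFIT2, USP18, IFI44L and IRF7, r with RSAD2 was 0.853, 0.829, 0.803 and 0.790 and rho 0.895, 0.895, 0.790 and 0.776, with permutation adjusted p from 0.000453 to 0.00621. OAS1 had a lower r than these over all 12 sows, and the reason was not tested. Without high 5, low 1, low 3 and low 4, r of OAS1 with RSAD2 was 0.950 over 8 sows. This leaves out low 3 and low 4, the low sows with the highest RSAD2. The low sows kept, low 2, low 5 and low 6, had RSAD2 at 2.58, 4.12 and 4.70. Over the same 8 sows r was 0.961 for IFIT1, 0.973 for ISG15, 0.809 for GBP1, 0.458 for GBP2 and 0.204 for IRF1. Over all 12 sows, for OAS1 r was 0.693 and its rho 0.713 (permutation adjusted p = 0.0184 and 0.0153), and r was 0.599 without high 3 and low 2. Within groups r was 0.873 in the high group, and 0.461 in the low group. The difference between these was not tested. At RSAD2 values of 6.66 in high 6 and 6.49 in low 3, OAS1 stood at 7.32 in high 6 and 4.18 in low 3. At RSAD2 values of 6.88 in high 5 and 7.20 in low 4, OAS1 stood at 9.61 in high 5 and 5.80 in low 4. GBP1 had r = 0.667 and rho = 0.748 over all sows (permutation adjusted p = 0.0184 and 0.00961), with r of 0.905 in the high group, and 0.345 in the low group, also untested.

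For IRF1, GBP2 and STAT2 no relation with RSAD2 passed. For IRF1 r was 0.169 and rho 0.105 (permutation adjusted p = 0.633 and 0.75), and for GBP2 r was 0.155 and rho 0.161 (permutation adjusted p = 0.633 and 0.663). STAT2 had r = 0.526 and rho = 0.524 (permutation adjusted p = 0.0927 and 0.0966), and r was 0.368 without high 3 and low 2. ISG12(A) and IRF9 had r of 0.681 and 0.646 but rho of 0.867 and 0.797, with permutation adjusted p from 0.00112 to 0.0184. Both stood highest in high 5, while RSAD2 was higher in high 1 and low 4.

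**Figure D4:**
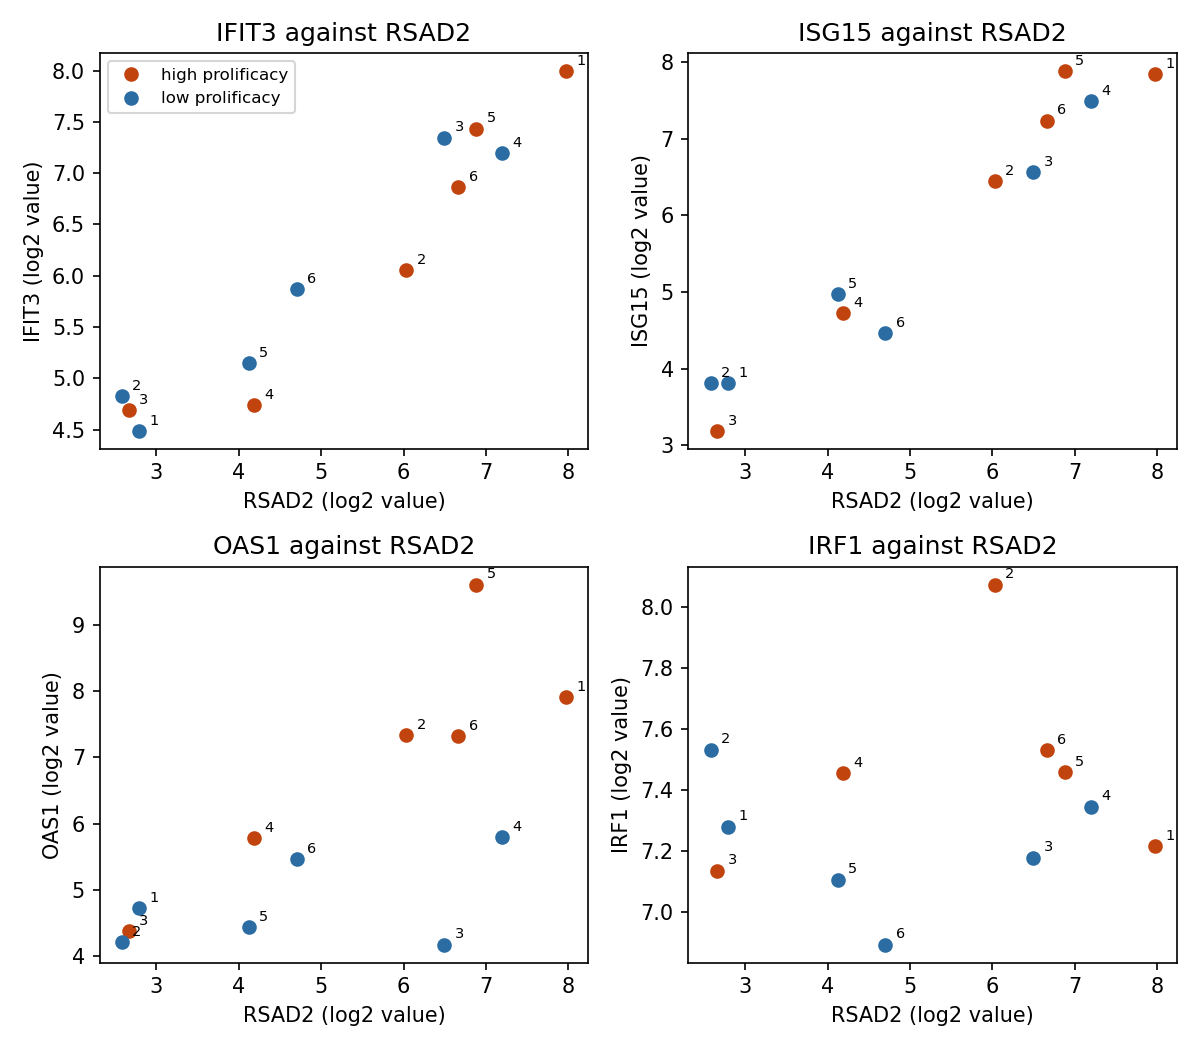
Log2 values of IFIT3, ISG15, OAS1 and IRF1 against RSAD2 in each sow, coloured by prolificacy group and marked with the animal number. IFIT3 and ISG15 climb with RSAD2 in both groups, OAS1 stays under 6 in all low sows, and IRF1 shows little slope (r = 0.169).

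A second probe set was available for several members. IFIT1 differed by 0.71, 0.51 and 0.19 in its 3 probe sets and IFI44L by 0.37, 0.18 and 0.17. GBP1 differed by 0.76 and 0.40 in its 2 tested probe sets, and IFIT2 by 0.48 and 0.48. The direction was the same in each tested probe set of these 4 genes, while the size varied. The probe sets of RSAD2 and IRF7 carry the suffix that Affymetrix gives where probes match more than 1 transcript. With its name moved back, the RSAD2 control probe set at the 3' end ran from 2.93 in high 3 to 6.19 in high 1 in the high group, against 3.09 in low 1 to 5.83 in low 4 in the low group. It again put high 1, low 4 and high 5 at the top.

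Upstream, 3 of 13 interferon symbols searched had a probe set of their own, and none of the 3 passed a log2 value of 4 in any sow. The other interferons, among them interferon delta, were not analysed here. IFNG averaged 1.98 in each group, and IFNB1 averaged 2.10 and IFNA1 3.06 over all sows. No interferon was tested, and of 4 receptor chains tested, 0 passed the limma threshold. The chains IFNAR1, IFNGR1 and IL10RB differed by 0.15, -0.014 and 0.19. Of 11 genes of interferon signalling and its inhibitors, 0 passed. SOCS1, which inhibits the JAK kinases, stood at 3.35, 4.52 and 5.15 in the high group, against 4.59, 5.34 and 5.78 in the low group (difference -0.75, limma adjusted p = 0.839). With the actin 3' difference as a covariate the SOCS1 difference was -0.31. IRF3 and IRF2 differed by 0.22 and 0.20.

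Of 2 tested genes that sense viral nucleic acid, 0 passed, with the kinase TBK1 at 0.20 and the adaptor MYD88 at -0.17. Of 9 other interferon-induced genes tested, 0 passed and 7 had a higher mean in the high group, where 47.6% of all probe sets tested did. Their median difference was 0.064. PARP12 stood at 7.11, 7.31 and 8.10 in the high group, against 6.39, 7.06 and 7.81 in the low group, a difference of 0.41. PARP9 differed by 0.38, and IFI30, a thiol reductase of antigen processing, by -0.27. Of 7 antigen processing genes tested, 0 passed. The immunoproteasome subunit PSMB8 differed by 0.33, with 7.26 in high 5 and 5.87 to 6.37 in the other high sows. Without high 5 the PSMB8 difference was 0.14. PSMB10 differed by -0.12 and PSME1, a proteasome activator, by 0.12. At an unadjusted p under 0.05 there was 1 of the 33 genes tested in these 5 lists, SOCS1, where 5.64% of all probe sets tested were.

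Markers of other cells were read beside these genes, counted as measured where above 4 in at least 6 sows, and their part in the result was not tested. Macrophage markers had 8 of 14 genes measured and a mean level from 6.86 to 7.83 in the high group, and from 6.58 to 7.72 in the low group. Their difference was above 0 in 4 of 8. Of 18 T and NK cell markers, 12 had a probe set and 1 was measured, CD247, at 4.38 to 4.55 in the high group, and 4.31 to 4.40 in the low group. The plasma cell marker JCHAIN ran from 6.58 to 7.09 in the high group, and from 6.14 to 7.47 in the low group. None of 5 neutrophil and 2 plasmacytoid dendritic cell markers with a probe set was measured, though S100A9 reached 6.45 in high 2 and 5.18 in high 5. Endothelial markers had a mean level of 9.10 in high 5 and of 8.11 to 8.43 in the other high sows, against 8.23 to 8.48 in the low sows. Granulosa markers had 4 of 7 genes measured, with a mean level of 5.90 to 10.18 in the high group, against 7.35 to 10.23 in the low group, and 0 of 4 had a higher mean in the high group. Of these CYP19A3, an aromatase gene, ran from 3.86 in high 2 to 12.74 in high 1 in the high group, against 6.71 in low 5 to 12.40 in low 6 in the low group. Of the sows with liver transcripts, high 5 and low 4 were high and low 1 was low for most interferon-stimulated genes. The other, low 3, had 3 members among their 3 highest sows and 3 among their 3 lowest, with a mean over members of 0.071. A relation of these genes with liver transcripts was not tested.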

How the data were processed

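The table holds 1 column for each of 12 sows. Per the labels' protocols, RiboPure RNA was labelled as biotinylated cRNA. GCOS and GCRMA (versions not given in the sources used here) made the values, per the submitters' processing notes. GCRMA corrects background and normalizes between arrays. The values the authors deposited were read as log2, since they ran from 0.971 to 15.34. GCRMA draws dim probe sets toward a floor and so compresses their differences. No pair of sows was identical. Of 24123 probe sets, 10099 had 1 symbol in the platform annotation, 198 several and 13826 none. All 20 members kept their symbol in RefSeq.

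The 124 control probe sets were left out. In a block of 62 of them the names were displaced by 21 places. Moving them made the mean gap to 24 same-named spike controls 0.423, against 4.99 as named. As named, the RSAD2 control averaged 14.81 in high sows and 14.74 in low sows. The actin 3' and 5' controls lie in the same block, so each result that uses the actin difference rests on this move.

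Probe sets above 4 in at least 6 sows, 13390 in all, were compared as high minus low with limma 3.58.1 in R 4.3.3, two-sided, with Benjamini-Hochberg adjustment at 0.05. The steps were tested on simulated data. The labels name no batch and no pairs, and whether the sows were related is not stated. The number of arrays limits the precision.

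The members, lists and tests were chosen with earlier results of these data known. All members are named, with up to 3 genes of each further list by smallest p. Markers, IFNG, IFNB1, IFNA1 and S100A9 were named for their levels. Correlations and their permutations used numpy 2.4.6, with ranks from scipy 1.17.1. The alternatives were other filters, scalings, array weights, an actin covariate and sows left out.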

Additional observations from a re-analysis of the deposited data

Results flagged for a closer look

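A sow stood apart from the other 5 of her group, by a gap that passed Dixon's 95% critical value, in 6 of 68 gene and group pairs examined. Chance alone flags about 1 in 20. DDX58 was 3.344 in high 3, where the next lowest high sow had 4.914. MX2 was 3.481 in low 4, where the next highest low sow had 3.005, both under the level of measured probe sets. IFNGR1 and PSMB8 were highest in high 5, at 9.546 and 7.262, against 9.235 and 6.366 in the next high sow. PSMB10 was 5.953 in high 2, where the next lowest high sow had 6.636. TBK1 was 8.604 in low 5, where the next lowest low sow had 8.743.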

How the results depend on the processing

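Over 24 alternative settings, 397 of 399 member differences kept their sign and none passed an adjusted p of 0.05 in limma. The 2 that turned did so with the actin 3' difference as a covariate, IRF1 at -0.0014 and DDX58 at -0.014. The count of members above 0 was 9 of 10 with a filter at 6, since fewer members were tested, and 16 of 17 whichever sow was left out. Single left-out sows moved USP18, MX1, IFI44L and GBP2 too, to 0.44 without low 2, 0.38 without high 5 and 0.92 without low 4, 0.23 without high 5, and 0.10 without low 3. The fits and correlations without the sows with liver transcripts were added after the data were seen. The median difference ran from 0.33 to 0.80 with 1 sow left out. Single members moved more with 1 sow left out, IFIT3 from 0.14 (without high 1) to 0.80 (without high 3) and RSAD2 from 0.64 (without high 1) to 1.70 (without high 3). OAS1 stayed between 1.74 (without high 5) and 2.79 (without high 3). Of all probe sets, 0 to 1 passed with 1 sow left out, the 1 without low 1, and it is not a member. Of 331 differences of other named genes 12 turned in sign. IFNGR1 ran from -0.071 to 0.067 and PSMB10 from -0.19 to 0.0062 with 1 sow left out. IFNGR1 was 0.0051 with median centring, 0.014 without high 2 and high 3 and 0.0075 with array weights. PSMB10 was 0.023 without high 2 and high 3, 0.0078 with array weights and 0.094 with the actin covariate. MYD88 was 0.071 with array weights and IL10RB -0.22 with the actin covariate. The cause of these turns was not tested. The labels do not say that animal numbers pair the sows. The deviations of same-numbered sows correlated from -0.455 to 0.168, and were not compared with those of other pairs of sows. With the replicate block 0 probe sets passed, 16 of 17 members were above 0 and the median was 0.48. The dim genes MX2, CXCL9 and XAF1, and RSAD2, ISG15, DDX58 and IRF7 where under 4, limit what a difference can show.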

Other observations

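Outside the lists named here, the genes whose values over 12 sows were most like the mean of the 17 tested members were LOC733579, PLSCR1, ANKRD44, LOC100519098 and RSF1. Likeness was Pearson's r over 12 sows, 0.924, 0.883, 0.879, 0.854 and 0.830, the 5 highest of the genes with a symbol of their own. It is a description, since these genes were picked for it from all probe sets tested. PLSCR1, a phospholipid scramblase that interferon raises in human cells, had 5.60, 6.18 and 7.28 (lowest, median, highest) in the high group, against 5.18, 6.005 and 6.47 in the low group. High 5 and high 1 were its highest sows, at 7.28 and 6.87, and low 4 the highest low sow. PLAC8, on the list of other interferon-induced genes, was chosen after its values were seen. It ran from 3.40 in high 3 to 7.09 in high 5 in the high group, against 3.14 in low 6 to 7.07 in low 4 in the low group.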
